A study of Mus musculus with 12 samples.

Results

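The genes described here are 46 genes of mitosis: the proteins of centromere and kinetochore, the spindle checkpoint, the machinery of anaphase, the mitotic kinases, the kinesin motors, the spindle and midbody proteins, and the condensins and their companions on the chromosome. They were listed by function, with earlier results of these data known. All 46 of 46 had a probe set annotated to that symbol alone, among 18194 such genes and 45101 probe sets. Each gene is given by 1 probe set, the one with the highest mean over the 12 arrays. A filter on variance over all arrays (above 0.05) left 44 of the 46 in the tests. Mad2l1 and Tpx2 did not pass it.

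At mitosis the kinetochore, a protein plate built on the centromere, ties each chromosome to spindle microtubules, and the spindle checkpoint holds the anaphase-promoting complex (APC/C) back until every chromosome is attached. Destruction of securin and cyclin B then lets separase cut cohesin, and the cleavage furrow and midbody divide the cell. Most of these genes are transcribed late in the cell cycle and are shut off in resting cells, and fat cell precursors divide a few times after the hormone signal before they leave the cycle as adipocytes.

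The study asked which genes respond to SRA (steroid receptor RNA activator), a non-coding RNA, in fat cells. RNA was hybridised to whole-genome Affymetrix mouse expression arrays, with 3 arrays in each of 4 groups, and all values below are log2 values after robust multi-array averaging (RMA). ST2 cells are a mouse marrow stromal line (strain BC8), and they carried either the empty retroviral vector pMSCV (control) or pMSCV-SRA (SRA), which holds a human SRA cDNA, and were taken on day 4 of differentiation. 3T3-L1 cells are a mouse embryo preadipocyte line (Swiss albino), and they carried the retroviral vector pSuperior with either a hairpin against mouse SRA (shSRA) or a control hairpin (shControl, called an empty vector in the labels), and were taken on day 8. All 4 groups were given the MDIT cocktail 2 days after confluence, per the study's methods. It held 0.5 mM isobutylmethylxanthine, 1 µM dexamethasone, 0.167 µM insulin and 5 µM troglitazone, with insulin again on day 2. The knockdown rests on 1 hairpin. The lines differ in origin, day and vector, which cannot be told apart, so each SRA group was tested only against the control of its own line.

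The targeted gene, Sra1, read 11.86, 11.67 and 11.84 on the shControl arrays and 9.46, 9.20 and 9.62 on the shSRA arrays (log2 fold change -2.36, limma adjusted p = 5.58e-07). In ST2 it differed by 0.22 (limma adjusted p = 0.484), and this probe set, made for the mouse transcript, does not check the human cDNA. The arrays differed in brightness within ST2: among probe sets with a mean above log2 8, the median deviation from the group mean was -0.43 on ST2 control array 2 and between -0.07 and 0.24 on the other 11 arrays. Adipocyte markers averaged between log2 12.4 and 14.0 on all arrays and macrophage and blood cell markers between 5.96 and 6.36.

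The promoters of these genes are shown first, since they carry 2 short words known from late cell cycle genes. TTTGAA is the core of the cell cycle genes homology region (CHR), the site at which the MuvB core of the DREAM complex touches DNA, and CCAAT is the box of NF-Y. In RefSeq promoter windows (GRCm38.p6, 250 bases before to 50 after the start site), 39 members had 42 windows. None was listed for Aurkb, Dlgap5, Incenp, Kif20a, Smc4, Tacc1 and Tpx2. The 4 members with the largest fall in ST2 are printed from 250 bases upstream to the start, with CCAAT (or its reverse complement ATTGG) and TTTGAA (or TTCAAA) in capitals. They lie at chr1:189688087-189688336 on the minus strand (Cenpf), chr11:117848987-117849236 on the plus strand (Birc5), chr2:164769679-164769928 on the plus strand (Ube2c) and chr2:127831860-127832109 on the minus strand (Bub1).
Cenpf: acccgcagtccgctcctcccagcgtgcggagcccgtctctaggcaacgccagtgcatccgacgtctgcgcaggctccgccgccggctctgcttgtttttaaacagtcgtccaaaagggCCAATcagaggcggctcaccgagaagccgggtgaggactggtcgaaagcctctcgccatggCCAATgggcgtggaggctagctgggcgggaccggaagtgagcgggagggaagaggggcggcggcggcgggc
Birc5: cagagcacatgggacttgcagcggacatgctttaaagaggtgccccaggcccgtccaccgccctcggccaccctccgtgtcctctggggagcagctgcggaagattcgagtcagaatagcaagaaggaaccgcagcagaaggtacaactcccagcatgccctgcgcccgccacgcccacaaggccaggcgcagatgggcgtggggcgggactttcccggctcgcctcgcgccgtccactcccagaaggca
Ube2c: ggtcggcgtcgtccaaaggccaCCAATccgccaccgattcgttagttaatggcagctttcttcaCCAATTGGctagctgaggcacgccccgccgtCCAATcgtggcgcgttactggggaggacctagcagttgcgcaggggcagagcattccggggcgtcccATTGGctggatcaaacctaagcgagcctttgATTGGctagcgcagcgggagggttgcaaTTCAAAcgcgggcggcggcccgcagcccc
Bub1: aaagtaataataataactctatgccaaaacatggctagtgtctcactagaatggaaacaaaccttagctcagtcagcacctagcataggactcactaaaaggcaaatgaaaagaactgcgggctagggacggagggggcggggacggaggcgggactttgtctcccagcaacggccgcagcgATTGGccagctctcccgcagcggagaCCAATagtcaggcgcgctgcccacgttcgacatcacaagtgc
Ube2c held 6 CCAAT matches on both strands, the run CCAATTGG counting on each, and 1 TTTGAA on the minus strand. Cenpf and Bub1 held 2 CCAAT matches each, and the TTTGAA of Cenpf lay just past the start. Birc5 held neither word in the stretch printed.

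TTTGAA was found on either strand in 34 of the 42 windows (81%), against 16% of 21263 windows of 17492 protein-coding genes. CCAAT was found in 71.4% against 38.2%, and both words together in 66.7% against 6.38%. The E2F site was searched on both strands as TTCCCGC, also as TTGGCGC, also as TTCGCGC and lastly as TTGCCGC, and any of these 4 words was in 19% of the members' windows and in 12.1% of all windows. Matches of different words may overlap, and the median GC content was 59% in the members' windows and 56.3% in all. The CHR word also sat near the start: 29 of 42 windows (69%) held it within 40 bases on either side of the start site, against 3.11% of all windows. In 10 members it lay in the last 40 bases before the start, and these are aligned to the start site below, 60 bases each, with TTTGAA or TTCAAA in capitals. This set was picked after the matches were seen.
Cdc20 (chr4:118437344-118437403, minus): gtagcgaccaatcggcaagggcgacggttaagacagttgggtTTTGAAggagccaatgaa
Cdca5 (chr19:6085037-6085096, plus): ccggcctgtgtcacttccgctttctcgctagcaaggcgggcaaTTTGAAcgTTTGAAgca
Cep55 (chr19:38054981-38055040, plus): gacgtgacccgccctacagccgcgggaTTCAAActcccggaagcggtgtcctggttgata
Espl1 (chr15:102296233-102296292, plus): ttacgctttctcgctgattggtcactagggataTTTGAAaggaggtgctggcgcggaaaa
Kif11 (chr19:37376322-37376381, plus): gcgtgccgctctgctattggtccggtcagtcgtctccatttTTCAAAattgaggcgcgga
Kif22 (chr7:127042421-127042480, minus): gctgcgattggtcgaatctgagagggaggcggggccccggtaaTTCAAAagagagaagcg
Ncapg (chr5:45669865-45669924, plus): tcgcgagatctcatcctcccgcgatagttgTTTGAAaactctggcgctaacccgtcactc
Prc1 (chr7:80294416-80294475, plus): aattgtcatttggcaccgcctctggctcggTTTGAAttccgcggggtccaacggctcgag
Top2a (chr11:99024190-99024249, minus): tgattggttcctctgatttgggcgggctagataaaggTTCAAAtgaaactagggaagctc
Ube2c (chr2:164769869-164769928, plus): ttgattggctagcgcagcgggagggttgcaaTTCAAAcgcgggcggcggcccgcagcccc
Cdca5 carried the word on the same strand 2 times, 2 bases apart. The word occurred in 42.9% of the windows of other mitotic genes, in 37.5% of those of mitotic cyclins and transcription factors, in 12.9% of those of DNA replication genes and in 10% of those of APC/C and cohesin subunits. The DNA replication windows held an E2F word in 67.7%. CCAAT was also frequent in the related lists, at 70.8% of the windows of mitotic cyclins and transcription factors, 67.7% of those of DNA replication genes and 60.3% of those of other mitotic genes. Both words together were in 33.3%, 9.68% and 30.2% of these windows.

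**Figure D1:**
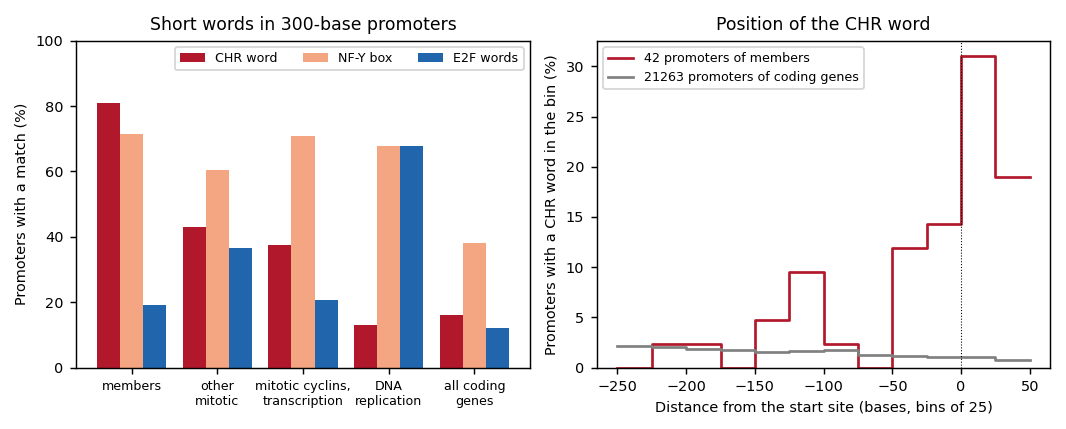
Left, share (%) of 300-base promoter windows with a match on either strand to the CHR word, the NF-Y box or 1 of 4 E2F words, for the members, 3 gene lists and all protein-coding genes (descriptive counts, no error bars). Right, share (%) of windows with a CHR word starting in each bin of 25 bases, by distance in bases from the start site; the members reach 31% in the bin just after the start, against 1.03% of all windows.

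SRA overexpressing ST2 adipocytes held less mRNA of the mitotic genes than ST2 controls. Of the 46 members, 38 were lower and 0 higher in the limma test (adjusted p under 0.05 over 19068 probe sets), where the background was 5.65% of all tested probe sets lower and 2.33% higher. By unadjusted p under 0.05, 42 were lower and 0 higher, where 10.1% of all tested probe sets were lower and 12.1% higher. The log2 fold change was negative for all 46, with a median of -0.95 and a range of -2.63 to -0.00, against a median of 0.07 over all tested probe sets, of which 40.4% were negative. The fall was at least 2-fold for 22 members and at least 4-fold for 4. The 3 SRA arrays lay below the 3 control arrays without overlap for 40 members, against 9.03% of all tested probe sets. Fewer dividing cells and less of this RNA per cell cannot be told apart in bulk RNA. The study named several of these genes, among them Cdc20, Birc5, Ube2c, Bub1, Mki67 and Tacc1, from the same arrays, so their direction here is not independent evidence. By RT-qPCR it also reported Cdc20, Ncapd2, Mki67, Ube2c and Bub1 as lower in SRA ST2 cells and higher in shSRA 3T3-L1 cells. From the arrays it listed Cdc20, Tacc1, Mki67 and Ncapd2 as significant in both lines. In the limma test here Tacc1 and Ncapd2 were not called in ST2, and none of these genes was called in 3T3-L1.

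Marker genes of other cell states moved too. Of the preadipocyte and fibroblast markers, 4 of 7 measured were lower in SRA cells (Col3a1 -1.95, Col1a1 -1.47 and S100a4 -1.45 were the largest), and the mean of this list ran from log2 10.3 to 10.5 on control arrays and from 9.36 to 9.64 on SRA arrays. Of the adipocyte markers, 2 of 8 measured (5 tested) were higher (the glucose transporter Slc2a4 by 1.08 and the fatty acid transporter Cd36 by 0.86), and the list mean ran from 12.4 to 12.9 and from 13.0 to 13.2. Of the 7 macrophage and blood cell markers measured, only 2 passed the variance filter, and 0 of these 2 were called by limma (0 also at unadjusted p under 0.05). The list means of all 7 were of 6.12 to 6.32 and 6.25 to 6.36. The part of the first 2 lists in the fall of the mitotic genes was not tested.

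**Figure D2:**
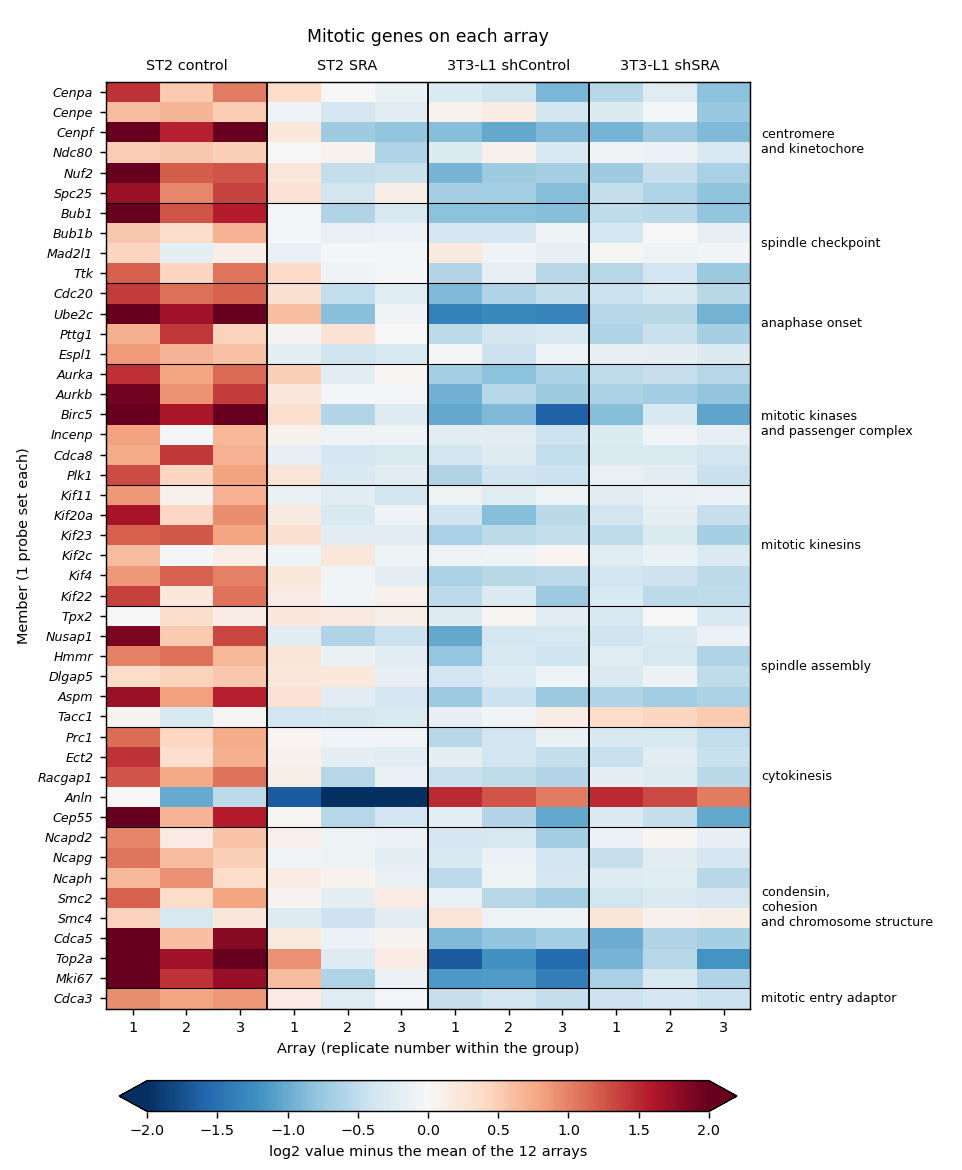
Heat map of the log2 value of each of the 46 members (rows, by class of function) on each of the 12 arrays (columns, by group and replicate), minus the member's mean over the 12 arrays; colours stop at 2 above and below. The ST2 control arrays are highest for 43 members by group mean, the 3T3-L1 arrays are low for most members, and Anln, Smc4 and Tacc1 have their highest group mean in 3T3-L1.

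**Figure D3:**
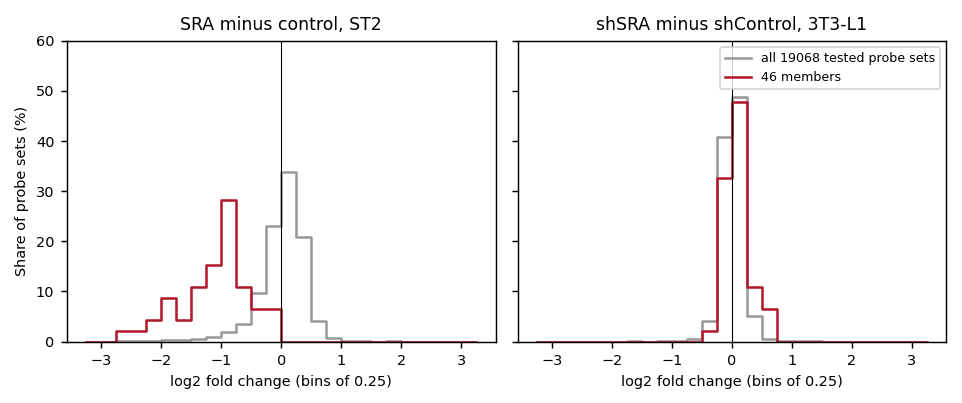
Share (%) of probe sets in each bin of 0.25 of the log2 fold change, for the 46 members and all 19068 tested probe sets, in ST2 (left) and in 3T3-L1 (right). In ST2 all members lie below 0, with a median of -0.95, and in 3T3-L1 they lie about 0, with a median of 0.06.

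All 6 centromere and kinetochore genes were lower (median log2 fold change -1.13). Cenpf, a large kinetochore protein that builds up in G2, had the largest fall of the 46. It read 8.68, 7.50 and 8.27 on the control arrays and 6.17, 5.24 and 5.16 on the SRA arrays. Every SRA array was more than 1 log2 unit below the lowest control, and the log2 fold change was -2.63 ± 0.26 (SE), a 6.18-fold fall (limma adjusted p = 2.13e-06). Another Cenpf probe set of lower signal fell less (-0.55, limma adjusted p = 0.0263). Nuf2, a part of the NDC80 complex that grips the microtubule, read 7.55, 6.40 and 6.45 in controls and 5.42, 4.73 and 4.76 in SRA cells. The groups did not overlap (log2 fold change -1.83 ± 0.25, limma adjusted p = 5.97e-05). Its partner Spc25 fell by 1.34 on the log2 scale. The centromeric histone Cenpa, the motor Cenpe and Ndc80 fell by less, with log2 fold changes of -0.92, -0.81 and -0.69, and each of these 3 calls was lost when 1 or another ST2 array was left out.

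Of the 4 spindle checkpoint genes 3 were lower (median -0.72). Bub1, the kinase that recruits the checkpoint to kinetochores, read 7.71, 6.50 and 6.82 in controls and 5.23, 4.65 and 4.93 in SRA cells. The highest SRA array was more than 1 log2 unit below the lowest control (log2 fold change -2.08 ± 0.23, a 4.22-fold fall, limma adjusted p = 7.46e-06). Ttk, the Mps1 kinase that starts checkpoint signalling, read 7.04, 6.28 and 6.91 in controls and 6.24, 5.76 and 5.81 in SRA cells. Its groups were close, the lowest control just above the highest SRA array (-0.81 ± 0.20, limma adjusted p = 0.0156). Bub1b, which encodes the APC/C inhibitor BubR1, fell by 0.63. Mad2l1, which encodes the checkpoint protein Mad2, read 9.57, 8.95 and 9.27 in controls and 8.99, 9.10 and 9.10 in SRA cells. These values overlapped, and the gene was too even over all arrays to be tested.

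All 4 genes of anaphase onset were lower (median -1.19). Ube2c, the E2 enzyme that starts ubiquitin chains for the APC/C, read 10.24, 9.37 and 9.80 in controls and 8.30, 6.86 and 7.63 in SRA cells. SRA array 2 was the lowest and array 1 the highest of a spread group, and the whole group stayed below the controls (log2 fold change -2.21 ± 0.27, a 4.62-fold fall, limma adjusted p = 1.77e-05). Cdc20, the APC/C activator on which the checkpoint acts, read 9.42, 9.13 and 9.19 in controls and 8.32, 7.52 and 7.77 in SRA cells. The controls were tightly grouped and all above the SRA arrays (-1.38 ± 0.19, limma adjusted p = 7.92e-05). Separase (Espl1) fell by 1.01 and securin (Pttg1) by 0.76.

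Of the 6 mitotic kinases and chromosomal passenger proteins 5 were lower (median -1.12). Birc5, the survivin subunit that docks the passenger complex on chromatin, read 8.79, 7.82 and 8.21 in controls and 6.51, 5.60 and 5.94 in SRA cells. The groups were more than 1 log2 unit apart (log2 fold change -2.25 ± 0.26, a 4.77-fold fall, limma adjusted p = 1.32e-05). Aurkb, the kinase of the complex, read 7.85, 6.82 and 7.32 in controls and 6.16, 5.88 and 5.88 in SRA cells. The 3 SRA arrays were nearly alike and below every control (-1.36 ± 0.21, limma adjusted p = 0.000193). Borealin (Cdca8) fell by 1.21, Aurka, the centrosomal Aurora kinase, by 1.03 and the polo kinase Plk1 by 0.93. The scaffold Incenp had a log2 fold change of -0.50 that did not pass (limma adjusted p = 0.118). A second Incenp probe set did, at -0.67 (limma adjusted p = 0.0349).

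Of the 6 kinesins 5 were lower (median -0.93). Kif23, a motor of the central spindle that forms centralspindlin with Racgap1, read 7.82, 7.86 and 7.41 in controls and 6.93, 6.40 and 6.41 in SRA cells. All SRA arrays were below all controls (log2 fold change -1.12 ± 0.18, limma adjusted p = 0.000394). Kif20a, a late mitotic motor of the central spindle, read 7.01, 5.77 and 6.28 in controls and 5.54, 5.05 and 5.28 in SRA cells. The controls were widely spread and the groups were close but did not overlap (-1.07 ± 0.23, limma adjusted p = 0.00585). The chromokinesins Kif4 and Kif22 fell by 1.03 and 0.82, and the spindle pole motor Kif11 by 0.79. Kif2c, a microtubule depolymerase of the centromere, had -0.21 and was not called (limma adjusted p = 0.497). Of its 3 other probe sets, 1 fell by 1.15 (limma adjusted p = 0.00777), 1 read -0.55 (limma adjusted p = 0.0991) and 1, which did not pass the filter, read 0.12.

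Of the 6 spindle assembly genes 3 were lower (median -0.67). Nusap1, which bundles spindle microtubules, read 8.32, 6.95 and 7.77 in controls and 6.22, 5.83 and 6.01 in SRA cells. The controls spread over more than 1 log2 unit and still lay above the SRA arrays (log2 fold change -1.66 ± 0.26, limma adjusted p = 0.000238). Aspm, a spindle pole protein, read 7.50, 6.59 and 7.32 in controls and 6.06, 5.54 and 5.43 in SRA cells. The groups did not overlap (-1.46 ± 0.21, limma adjusted p = 0.000123). The 4 other Aspm probe sets, all of lower signal, read -0.55 to -0.28 and were not called (limma adjusted p = 0.0557 to 0.365). Hmmr, a microtubule-binding protein also known as a hyaluronan receptor, fell by 0.97. Dlgap5, a spindle protein, had -0.37 (limma adjusted p = 0.199).

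The other 2 spindle assembly genes stood apart. Tacc1, of a family of centrosomal coiled-coil proteins, read 10.99, 10.64 and 10.97 in controls and 10.56, 10.59 and 10.65 in SRA cells. The groups overlapped by the lowest control (log2 fold change -0.27 ± 0.16, limma adjusted p = 0.323). Tpx2, an activator of Aurora A, differed by -0.00 on the probe set with the highest mean, which was not tested. A second Tpx2 probe set that was not tested read -0.02. On the 2 others it fell by 1.43 and 1.41 (limma adjusted p = 0.000148 and 2.28e-05), so the 4 probe sets split evenly.

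All 5 cytokinesis genes were lower (median -1.22). Cep55, the midbody scaffold that recruits the abscission machinery, read 8.41, 6.86 and 7.75 in controls and 6.19, 5.60 and 5.79 in SRA cells. Control array 2 was far below control array 1 and still above every SRA array (log2 fold change -1.81 ± 0.30, limma adjusted p = 0.000445). Anln, the anillin that ties actin and myosin in the furrow, read 9.57, 8.55 and 9.03 in controls and 7.89, 7.10 and 7.55 in SRA cells. The groups did not overlap (-1.53 ± 0.23, limma adjusted p = 0.000217). Racgap1, the GTPase-activating partner of Kif23, fell by 1.22, the RhoA activator Ect2 by 0.93 and the microtubule bundler Prc1 by 0.78.

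Of the 8 genes of condensin, cohesion and chromosome structure 6 were lower (median -0.80). Top2a, the topoisomerase that untangles sister DNA, read 9.92, 9.17 and 9.66 in controls and 8.41, 7.24 and 7.65 in SRA cells. The groups did not overlap (log2 fold change -1.82 ± 0.25, limma adjusted p = 8.15e-05), although 2 dimmer Top2a probe sets read -0.35 and -0.27 and were not called. Mki67, the coat of mitotic chromosomes and a common proliferation marker, read 8.39, 7.71 and 8.01 in controls and 6.90, 5.66 and 6.16 in SRA cells. The SRA arrays were all below the controls (-1.80 ± 0.24, limma adjusted p = 5.51e-05). Cdca5, the sororin that guards cohesion, fell by 1.44.

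The condensin subunits moved less. Ncapg, Smc2 and Ncaph fell by 0.84, 0.77 and 0.62. Smc4 had -0.42 (limma adjusted p = 0.19) and Ncapd2 had -0.60 (limma adjusted p = 0.0543), and both passed when the dim ST2 control array 2 was left out (limma adjusted p = 0.00828 and 0.00365). Cdca3, an adaptor for mitotic entry and the only member of its class, read 7.64, 7.49 and 7.57 in controls and 6.87, 6.47 and 6.68 in SRA cells. Both groups were tight and did not overlap (log2 fold change -0.90 ± 0.15, limma adjusted p = 0.000597). Its 2 other probe sets read -0.31 and -0.15 and were not called, and with the 3 averaged the call was lost (-0.45, limma adjusted p = 0.0673).

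**Figure D4:**
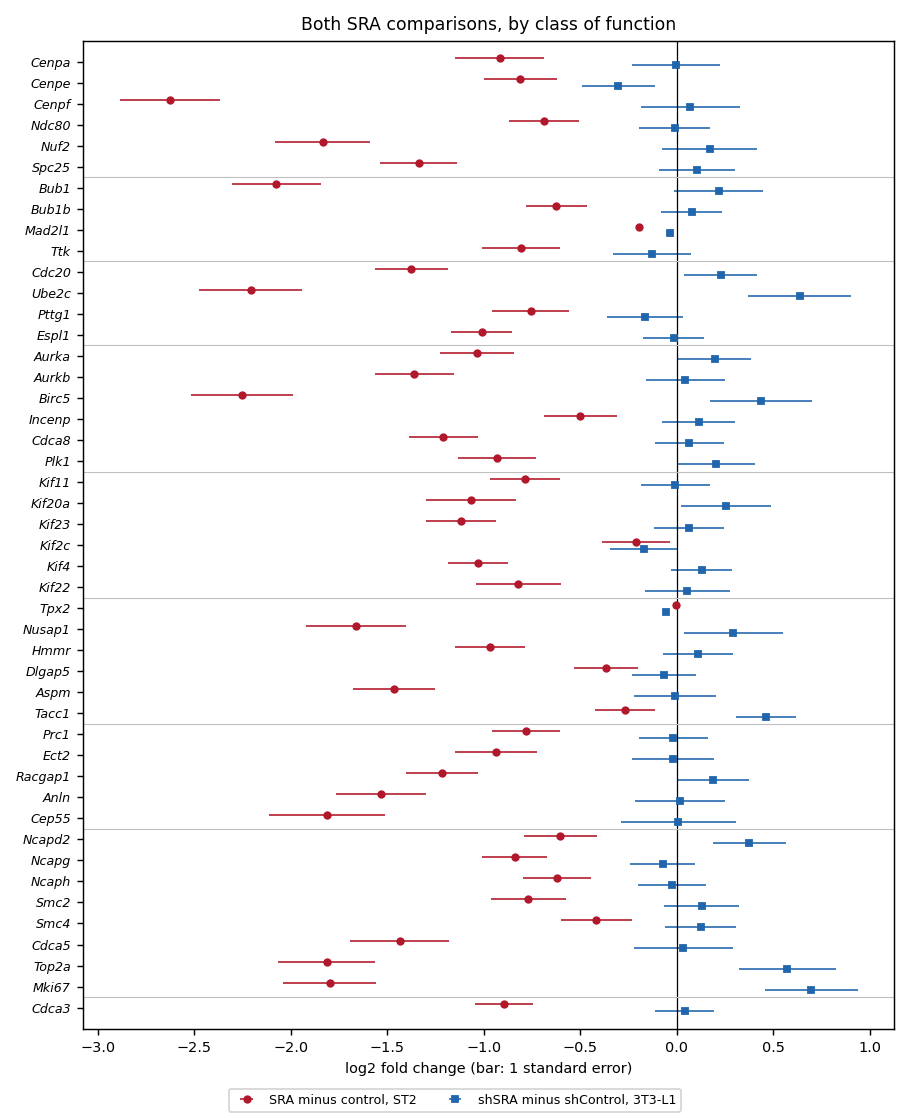
Log2 fold change of each member (points) with 1 standard error from limma (bars), SRA minus control in ST2 (circles) and shSRA minus shControl in 3T3-L1 (squares), grouped by class; the 2 untested members have no bar. All 46 circles lie at or left of 0, down to -2.63 for Cenpf, and the squares lie between -0.30 and 0.70.

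In both ST2 groups array 1 was most often the highest and array 2 most often the lowest. ST2 control array 1 was the highest of the controls for 35 of 46 members and the dim array 2 the lowest for 34. SRA array 1 was the highest of its group for 39 and SRA array 2 the lowest for 28. The median of the members, each centred on its mean over the 12 arrays, was 1.19, 0.65 and 0.79 on the control arrays and 0.15, -0.23 and -0.15 on the SRA arrays, so the dimmest control still lay above the highest SRA array. With any 1 array left out, 31 to 40 members were lower (31 without SRA array 2, 40 without control array 2), and 29 of the 38 were called each time. Members with TTTGAA in the promoter window (31) had -1.01 as their median log2 fold change (range -2.63 to -0.21). Those without it (8) had -1.24 (range -2.25 to -0.20), with Birc5, Bub1, Nuf2 and Nusap1 among the latter. The rest of these were Cenpe (-0.81), Pttg1 (-0.76), Ncaph (-0.62) and the untested Mad2l1 (-0.20).

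The other probe sets of the same genes were lower in part. The members have 111 probe sets, and of the 65 not used above 44 passed the filter, with 24 lower and 0 higher in ST2 by limma. At least 1 probe set was lower for 41 of the 46 genes. Of the 38 members called, 23 had another tested probe set, and for 16 of these another one was called too. For the other 7, Aspm, Cdca3, Cenpa, Kif23, Ncaph, Pttg1 and Top2a, no other tested probe set was called.

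The wider machinery moved in part. Of 58 other mitotic genes measured (36 tested), 21 were lower and 0 higher (median -0.33), led by Ckap2, Nek2 and Arhgap11a with log2 fold changes of -1.39, -1.32 and -1.15. Of 22 mitotic cyclins, their kinase partners and transcription factors (16 tested), 8 were lower and 0 higher (median -0.28), led by the cyclins Ccnb2 (-2.20) and Ccna2 (-1.97) and the kinase Pbk (-1.71). Of 29 DNA replication genes (24 tested) 9 were lower and 0 higher (median -0.44), led by the helicase subunit Mcm5 (-1.86), the ribonucleotide reductase subunit Rrm2 (-1.75) and Uhrf1 (-1.52), which binds hemimethylated DNA. Of the 22 APC/C and cohesin subunits, 12 passed the variance filter, and 0 of these 12 were lower or higher by limma, with 1 higher and 0 lower at unadjusted p under 0.05. The median over all 22 was 0.14.

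In SRA knockdown 3T3-L1 adipocytes, 0 of the 46 members were higher or lower by limma after adjustment, where 0.0315% of all tested probe sets were higher and 0.042% lower. At unadjusted p under 0.05, 4 were higher and 0 lower, where 1.38% of all tested probe sets were higher and 1.42% lower. The log2 fold changes ran from -0.30 (Cenpe) to 0.70 (Mki67) with a median of 0.06, against 0.02 over all tested probe sets. Of the 46, 30 were positive, where 54.5% of all tested probe sets were. Of the gene lists above, including the markers of adipocytes, preadipocytes and macrophages, 0 genes were called in this comparison by limma, with 2 higher (1 DNA replication gene and 1 preadipocyte marker) and 1 lower (a preadipocyte marker) at unadjusted p under 0.05.

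These 4 are named with their arrays. Mki67, the proliferation marker, read 5.13, 5.14 and 4.89 on shControl arrays and 5.62, 5.96 and 5.67 on shSRA arrays. Each shSRA array was above every control and the log2 difference was 0.70 ± 0.24 (limma unadjusted p = 0.00872). Tacc1 read 10.78, 10.89 and 11.10 in shControl and 11.31, 11.38 and 11.47 in shSRA cells. The groups did not overlap (0.46 ± 0.16, limma unadjusted p = 0.00768), and its other probe sets read 0.36 and 0.40. Ube2c read 6.34, 6.41 and 6.37 in shControl and 7.13, 7.15 and 6.75 in shSRA cells. The controls were nearly alike and below every shSRA array (0.64 ± 0.27, limma unadjusted p = 0.0266). Top2a read 5.82, 6.29 and 5.96 in shControl and 6.56, 6.93 and 6.30 in shSRA cells, where the lowest shSRA array was just above the highest control (0.57 ± 0.25, limma unadjusted p = 0.0339). The other Top2a probe sets, of lower signal, differed less, by 0.15 and -0.002.

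Without overlap, 7 members were higher in shSRA (Aurka, Bub1, Mki67, Ncapd2, Tacc1, Top2a and Ube2c), against 5.49% of all tested probe sets, and 1, Kif2c, was lower, against 4.69%. The replicate numbers paired the 3T3-L1 arrays. By number, 14 members were higher in all 3 pairs and 4 lower in all 3, where 19.3% of all tested probe sets were higher and 15.6% lower in all 3. With the replicate number as a block in both lines, 1 member was higher by limma, Mki67 (adjusted p = 0.022), where 0.325% of all tested probe sets were higher, and Ube2c and Top2a missed (adjusted p = 0.0538 and 0.104). The block was also limited to the 3T3-L1 arrays, with both lines still fitted together. In that fit 0 members were called in 3T3-L1 by limma, and Mki67 had an unadjusted limma p of 0.00942. The nested F test of limma, a classification that takes both comparisons together, also called Mki67 higher and no other member (0.241% of all tested probe sets were higher). It called 32 members lower in ST2, where 4.21% of all tested probe sets were lower. With the block in both lines, 1 of the 7 preadipocyte and fibroblast markers measured was also higher in 3T3-L1 by limma. The nested F test likewise called 1 of these 7 higher in 3T3-L1.

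**Figure D5:**
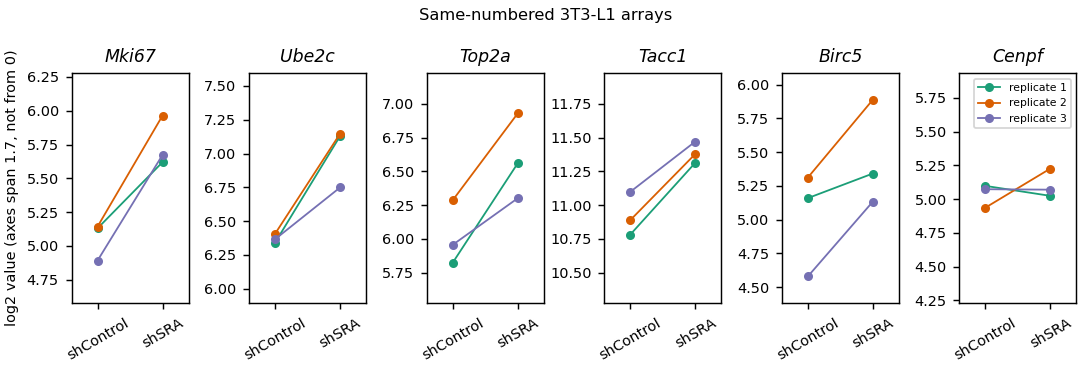
Log2 values of the 4 members with an unadjusted limma p under 0.05 and of Birc5 and Cenpf in shControl and shSRA 3T3-L1 arrays, lines joining the arrays of 1 replicate number; each axis spans 1.7 log2 units and does not start at 0. Birc5 is higher by 0.18 to 0.58 in the 3 pairs, and Cenpf differs in sign between the pairs.

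The log2 fold changes of the 2 comparisons, which share no arrays, differed for 25 members in limma's test of the difference, where 2.32% of all tested probe sets did. All 25 were more negative in ST2. SRA was raised in ST2 and lowered in 3T3-L1, so opposite responses in the 2 lines also count as a difference in this test. The largest differences were -2.85 for Ube2c (limma adjusted p = 0.000248), -2.70 for Cenpf (0.000253) and -2.69 for Birc5 (0.000336). Mki67 followed at -2.50 and Top2a at -2.39. The count depended on the ST2 arrays, with 15 without SRA array 2 and 38 without control array 2. Tacc1, with opposite signs in the lines, did not pass (-0.73, limma adjusted p = 0.109).

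Across the 4 groups the ST2 control mean was the highest for 43 members. The ST2 control mean exceeded the shControl mean by a median of 1.33 (range -1.77 to 3.56), and the ST2 SRA mean exceeded it by a median of 0.41. For 38 members the SRA mean lay between those of the ST2 control and shControl. All 3 ST2 control arrays were above all 6 3T3-L1 arrays for 40 members, against 22.6% of all tested probe sets. They were below all 6 for 1 member, against 35.7% of all tested probe sets. That gene was Anln, at 11.05, 10.81 and 10.59 on shControl arrays. These levels describe lines that also differ in day and vector, and they were not tested.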

How the data were processed

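The authors made the deposited log2 values from 12 arrays by RMA in the affy package and used limma, per the labels and the study's methods, with no version of either stated in the sources. RMA pulls the arrays to 1 distribution, so values are relative within an array. The number of arrays, 3 per group, limits the precision, and probe sets of different genes were not compared in level. Probe sets were named from GEO's platform annotation: 34958 had 1 symbol, 932 several and 9211 none.

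The 4 groups were fitted together with limma 3.58.1 in R 4.3.3 (lmFit, eBayes) on the 19068 probe sets with a variance above 0.05 over all arrays. Each comparison was adjusted alone by Benjamini-Hochberg and called at 0.05, and a list is described by counts and medians. The labels call replicates biological, and p-values measure the spread between these arrays. Same-numbered arrays deviated together in 3T3-L1 (r = 0.587, 0.586 and 0.382 over tested probe sets), which pairs them. In ST2 these r values were 0.039, 0.268 and 0.527, which over all tested probe sets does not pair them by the rule that every r exceed 0.1. Over the tested members alone, the same-numbered ST2 arrays had r = 0.338, 0.399 and 0.16, each above 0.1. The main fit used no block in either line. The fit was tested on simulated data. Members, classes and lists were chosen with earlier results of these data known. Values on every array are given for the 2 members of each class with the largest log2 fold change in ST2 and for members with an unadjusted p under 0.05 in 3T3-L1. The ST2 values of Mad2l1 and the shControl values of Anln were added after they were seen. Up to 3 called genes per list are named. Promoters are RefSeq windows (GRCm38.p6). Alternatives were the filter, scaling, block, choice of probe set, each line alone, the nested F test and leaving out each array.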

Additional observations from a re-analysis of the deposited data

Results flagged for a closer look

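For 25 of the 46 mitotic genes the log2 fold change with SRA overexpression in ST2 differed from that with SRA knockdown in 3T3-L1 in limma's test of the difference, each being more negative in ST2. The 2 comparisons differ also in cell line, day and vector, which cannot be told apart from the direction of the SRA change.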

How the results depend on the processing

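No member changed sign with a call under any of the 20 alternatives, and 27 of the 38 members lower in ST2 were called under each. That count was 32 with the nested F test, 33 when all probe sets of a gene were averaged, 35 with each line alone, 37 without the filter, 38 with arrays centred on bright probe sets, 39 after a second quantile normalization, 40 with the replicate block in both lines and 41 with the probe set of highest variance. In 3T3-L1 the count of higher members was 1 instead of 0 with the replicate block within each line and 1 with the nested F test. With the block in the 3T3-L1 arrays only, an alternative chosen after seeing the data, it stayed 0. Leaving out 1 array gave 31 to 40 members lower in ST2 and 15 to 38 that differed between the comparisons. The calls lost in this way were those of Cenpa, Cenpe, Ndc80, Bub1b, Ttk, Pttg1, Kif22, Ncaph and Smc2. The cause was not tested. The median log2 fold change ran from -1.08 to -0.85 in ST2 and from 0.03 to 0.13 in 3T3-L1. Calls of Cenpa, Ttk, Aurka, Ncaph, Smc2 and Cdca3 were lost when the probe sets of a gene were averaged. The 3 arrays per group limit the precision.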
